A study of Mus musculus with 6 samples.

Results

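Small RNAs of the vessel wall were followed in mouse prefrontal cortex: both arms of miR-126a (mmu-miR-126a-3p and mmu-miR-126a-5p), which mark endothelial cells, and both arms of miR-143 (mmu-miR-143-3p and mmu-miR-143-5p) and of miR-145a (mmu-miR-145a-5p and mmu-miR-145a-3p), which mark smooth muscle. They were chosen by their names in the deposited table, where each of the 6 names stood on 1 entry, so the group holds 6 of the 1013 distinct sequences listed. The donors were male mice of the inbred strain C57BL/6, recorded as 30 weeks old and dosed by gavage daily for 6 months from about 5 weeks of age. Controls (3 libraries) received water, that is 0 mg per kg of PS NPs, and the exposed group (3 libraries) received polystyrene nanoparticles (PS-NP) at 50 mg per kg body weight. No allele, sort or other agent is named for either group, and nothing in the labels ties a library to a separate animal, so the spread between libraries may be technical. The series asked which miRNAs could mark brain injury by nano-polystyrene.

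A miRNA hairpin is cut into a duplex of which usually one arm, the guide, is kept in Argonaute, and bases 2 to 8 of that arm, its seed, pair with target mRNAs. In endothelium miR-126 is made from an intron of Egfl7 and is known from mouse and zebrafish to sustain vessel integrity by repressing Spred1 and Pik3r2, inhibitors of VEGF signalling. miR-143 and miR-145 are cut from a shared primary transcript in smooth muscle cells and pericytes, where in mouse they favour the contractile state, with Klf4, Klf5 and Elk1 among the targets known for this pair. In brain tissue these RNAs come mostly from capillaries, arterioles and the meninges.

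The miR-126a sequences are shown first because both arms come from 1 hairpin and their reads can be followed base by base. Capitals mark the seed in the sequences read in the libraries and in the RefSeq mature arm, and in the RefSeq hairpin they mark the stretches that the 2 arms as read match.
miR-126a-3p as read: tCGTACCGtgagtaataatgc
miR-126a-3p in RefSeq: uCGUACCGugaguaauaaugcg
miR-126a-5p as read: cATTATTActtttggtacgcga
Mir126a hairpin in RefSeq: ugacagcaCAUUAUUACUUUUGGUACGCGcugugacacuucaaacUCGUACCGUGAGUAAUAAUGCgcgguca

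The hairpin lies on the plus strand of GRCm38 chromosome 2, 26591357 to 26591429. It sits within Egfl7, and in GENCODE M21 it fell inside 9 of the 19 Egfl7 transcripts, in the introns of all of these except 1, where it overlapped an exon. The 3p arm as read (26591402 to 26591422) was 1 base shorter at its 3′ end than the RefSeq arm. The 5p arm as read matched the hairpin over 21 bases (26591365 to 26591385) and then carried C22A, counted from the 5′ end of the read, a 3′ base that the hairpin does not encode. The seeds of both arms were found in 0 of the other sequences of the table.

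Mir143 and Mir145a lie together on the minus strand of chromosome 18, at 61649196 to 61649258 and 61647825 to 61647894, with 1301 bases between them. RefSeq places both within the noncoding gene Carmn (61645878 to 61665538). The GENCODE M21 model of Carmn, also on the minus strand, ends at 61649625, before it reaches either hairpin. Their arms were read 1 base longer than annotated for miR-143-3p and miR-143-5p, and at annotated length for miR-145a-5p. The miR-145a-3p read began 2 bases upstream of the annotated arm, so that bases 2 to 8 of the read are not the seed of the annotated arm. The seed of miR-145a-5p also occurs in miR-145b, and the seeds of the other 3 smooth muscle arms occur in 0 other sequences. The miR-145b entry held 0 to 6.5 reads per library against 5850.5 to 9603.5 for miR-145a-5p, and where values ended in a fraction of a read, the sum of both entries was whole in every library.

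Levels are given in CPM, reads scaled to a common library size by TMM, a method that sets the bulk of miRNAs equal between libraries. A read spans a whole miRNA, so no length correction applies, but ligation efficiency differs between sequences and levels of different miRNAs are approximate. The order was miR-143-3p, miR-126a-3p, miR-145a-5p, miR-126a-5p, miR-145a-3p and miR-143-5p, and it was the same in each of the 6 libraries. Within each group the ranges of neighbours in this order did not overlap. Among the 639 sequences with enough reads to be tested, miR-143-3p ranked 43 by mean level, miR-126a-3p 55, miR-145a-5p 78, miR-126a-5p 209, miR-145a-3p 304 and miR-143-5p 408. All 6 passed the filter on low counts, and together they made up 0.411% to 0.564% of reads in the controls and 0.499% to 0.814% with PS-NP.

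The libraries held 6170654 to 9905746 reads, and neuronal miRNAs were abundant in them: miR-128-3p measured 91715 to 129723 CPM, miR-124-3p 32334 to 51384 CPM and miR-9-5p 22307 to 33624 CPM, levels that fit a sample of brain. The third PS-NP library, the deepest, had the lowest summed level of 8 neuronal miRNAs: it stood at 152720 CPM, and the remaining libraries ranged from 178286 to 208459 CPM. The sum is carried by the abundant miR-128-3p and miR-124-3p, while miR-9-3p (937 CPM), miR-137-3p (205 CPM) and miR-138-5p (626 CPM) were at their highest in that same library. It also had the highest level of 5 of the 6 vascular miRNAs. In tissue libraries like these, a change in the number of vessel cells and a change in miRNA per cell cannot be told apart.

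Exposed cortex had higher mean levels of 5 of the 6 vascular miRNAs, by 1.3 to 1.39 times, and a lower mean of miR-145a-5p, but none passed the test. Over all 639 sequences 47.9% had a positive difference. The members are paired arms of the same hairpins, so counts and medians over them do not rest on 6 independent sequences. The median log2 difference was 0.42 for the 6 members and −0.017 for all sequences. Medians of this size were not particular to vascular miRNAs. Among the lists of other cell types read below, it was 0.43 for leukocytes and microglia (set by a scarce member) and 0.41 for choroid plexus and ependyma. It was 0.11 for neurons, 0.02 for oligodendrocytes and −0.11 for erythroid cells. At a Benjamini-Hochberg adjusted p of 0.05 in edgeR's quasi-likelihood test, the share called was 0% of the 639 sequences and the count was 0 of 6 members, with adjusted p from 0.905 to 0.916. At an unadjusted p under 0.05, miR-126a-3p was the 1 member of 6, against 2.35% of all sequences, or 1.41% counting those with a higher mean in PS-NP cortex. DESeq2 and limma-voom called 0 of all sequences as well, with 15 and 17 at an unadjusted p under 0.05.

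**Figure D1:**
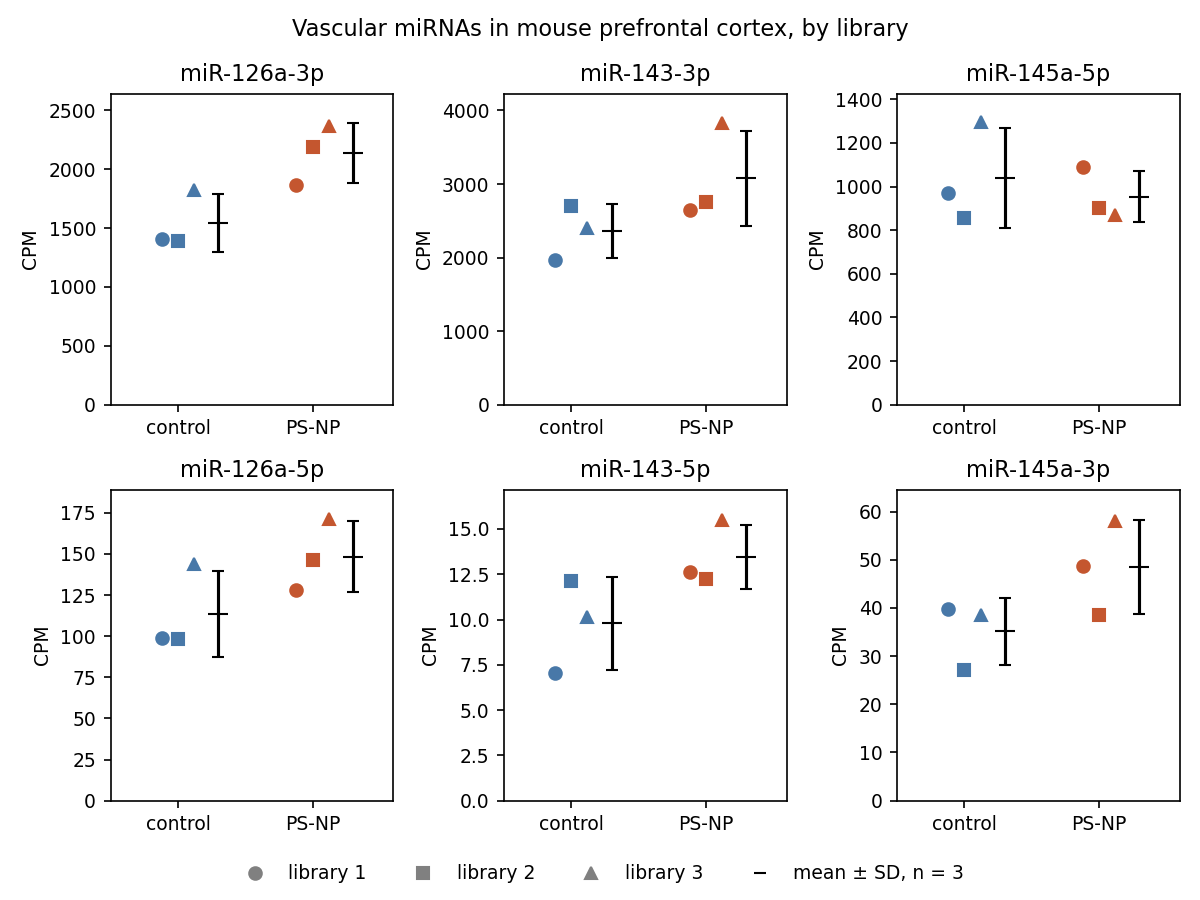
Level (CPM, axes from 0) of each vascular miRNA in every library; circles, squares and triangles are libraries 1, 2 and 3, blue for control and orange for PS-NP, and the black bar is the mean ± SD (n = 3). The miR-126a-3p values of PS-NP, from 1863 CPM, lie above all controls, up to 1824 CPM, while those of miR-145a-5p overlap.

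The endothelial guide arm, miR-126a-3p, measured 1409, 1388 and 1824 CPM in the controls and 1863, 2187 and 2364 CPM with PS-NP. Each exposed library lay above each control, though the lowest exposed and the highest control library were close. The log2 difference was 0.47 (SE 0.18, 95% interval 0.07 to 0.88, edgeR adjusted p = 0.905), rank 9 of 639 by p. An exact 2-sided permutation test over the 6 libraries gave p = 0.1, the smallest that 3 against 3 allow.

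Its partner arm, miR-126a-5p, which in mouse endothelial cells represses Dlk1, measured 98.7, 98.3 and 144 CPM in the controls and 128, 146 and 171 CPM with PS-NP. The third control exceeded the first exposed library, so the groups overlapped. The log2 difference was 0.39 (95% interval −0.11 to 0.88, edgeR adjusted p = 0.905). The third control was the highest control for both miR-126a arms, and without it their log2 differences were 0.61 and 0.59. Without the third PS-NP library they were 0.38 and 0.25.

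The main smooth muscle miRNA, miR-143-3p, measured 1972, 2706 and 2403 CPM in the controls and 2649, 2761 and 3825 CPM with PS-NP. The second control lay above the first exposed library, and the third exposed library stood far above the other two. This gave a log2 difference of 0.38 (95% interval −0.072 to 0.84, edgeR adjusted p = 0.905), and 0.18 without the third PS-NP library. The part of that library's makeup in the difference was not tested.

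The scarce opposite strand, miR-143-5p, measured 7.05, 12.1 and 10.2 CPM in the controls and 12.6, 12.2 and 15.5 CPM with PS-NP. The groups did not overlap, but only barely, since the second control was just under the second exposed library. It rested on 61 to 171 reads per library, so that counting alone gives an error of up to 12.8% in the shallowest value. The log2 difference was 0.46 (95% interval −0.19 to 1.11, edgeR adjusted p = 0.905), and 0.27 without the first control. With miR-126a-3p it made 2 of 6 members whose exposed libraries all lay above the controls, where 5.01% of all sequences did so.

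The guide arm of the second smooth muscle hairpin, miR-145a-5p, measured 969, 856 and 1297 CPM in the controls and 1087, 902 and 870 CPM with PS-NP. The groups overlapped, and the third control was highest of all. Its log2 difference was −0.13 (95% interval −0.58 to 0.32, edgeR adjusted p = 0.916), and 0.063 without that control. The upper bound lies below the fitted differences of the other 5 members, 0.38 to 0.47; that comparison of members is not a test of their difference.

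The opposite strand, miR-145a-3p, measured 39.8, 27.2 and 38.5 CPM in the controls and 48.8, 38.6 and 58.1 CPM with PS-NP. The second exposed library lay among the controls and the other two lay above them. Here the log2 difference was 0.46 (95% interval −0.087 to 1.01, edgeR adjusted p = 0.905), and 0.29 without the third PS-NP library.

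**Figure D2:**
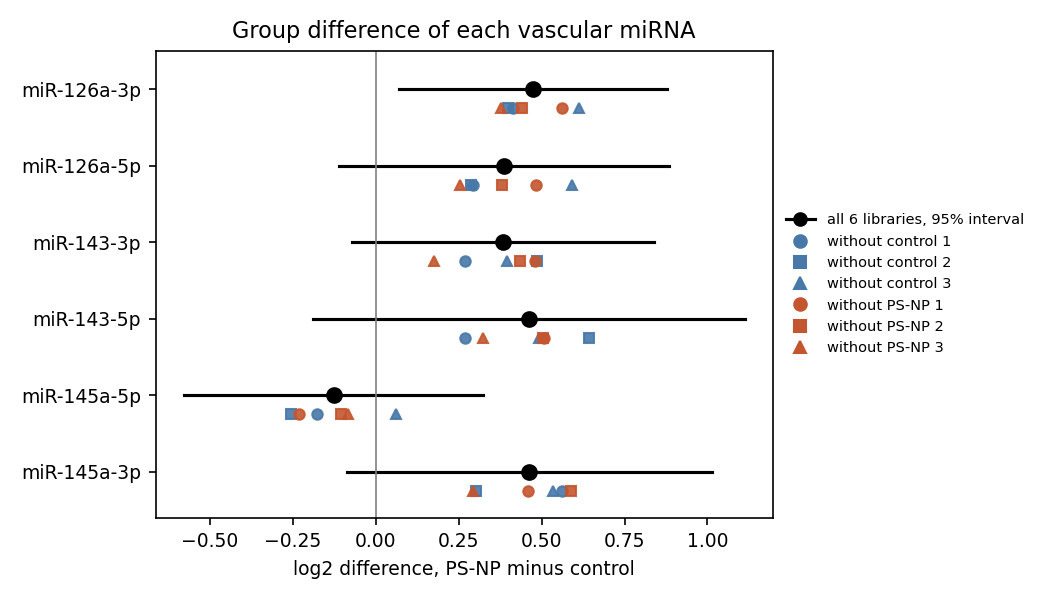
Log2 difference of PS-NP minus control for each vascular miRNA: black dots with the 95% interval from edgeR use all 6 libraries, and coloured marks below each leave out 1 library. The interval of miR-126a-3p, from 0.07, is the one that does not reach 0, and miR-145a-5p is the one with marks on both sides of 0.

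The arms of a hairpin are made in equal numbers and kept unequally, and their ratio within a library does not depend on how libraries are scaled. miR-126a had 14.3, 14.1 and 12.7 reads of its 3p arm per 5p read in the controls and 14.6, 15 and 13.8 with PS-NP. This ratio was steady, and the 5p arm held 6.27% to 7.3% of the hairpin's reads over all libraries. The log2 of 5p over 3p differed by −0.079 between groups (95% interval −0.52 to 0.37, limma adjusted p = 0.965 over 152 hairpins).

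The miR-143 hairpin was far more one-sided, with 280, 223 and 236 reads of the 3p arm per 5p read in the controls and 210, 225 and 247 with PS-NP. Groups overlapped, and the minor arm made up 0.356% to 0.474% of its reads. The log2 of 5p over 3p differed by 0.10 (95% interval −0.38 to 0.58, limma adjusted p = 0.965). By size of its arm ratio miR-143 ranked 19 of the 152 hairpins, miR-145a 56 and miR-126a 67.

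For miR-145a the 5p arm leads, with 24.4, 31.5 and 33.6 reads per 3p read in the controls and 22.3, 23.3 and 15 with PS-NP. Every exposed library lay below every control, and the third exposed library was lowest. The mean was 29.8 ± 4.85 reads in the controls and 20.2 ± 4.57 with PS-NP (SD, n = 3 each). The log2 of 5p over 3p differed by −0.57 (95% interval −1.18 to 0.033, limma adjusted p = 0.752), which did not pass, and the exact 2-sided permutation p was 0.1, the smallest possible. Of the 152 hairpins, 0% were called, 4.61% had an unadjusted p under 0.05, and 1.97% had exposed libraries all below the controls. Without the third PS-NP library the log2 difference was −0.37.

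**Figure D3:**
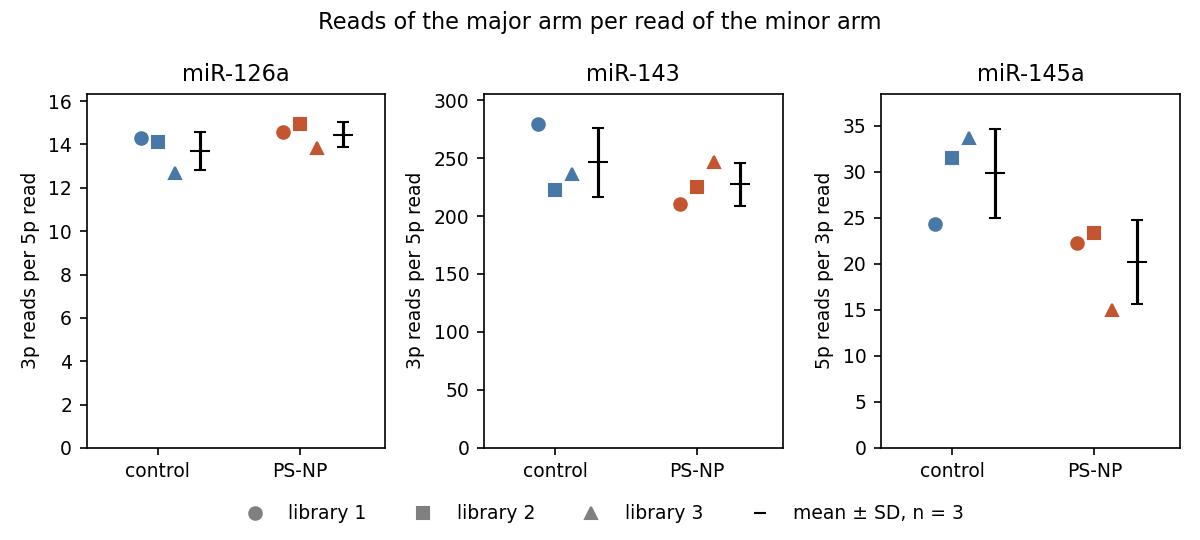
Reads of the major arm per read of the minor arm in each library (axes from 0), with the mean ± SD (n = 3) in black. The miR-145a values of PS-NP, at most 23.3, lie below all controls, from 24.4, and the groups overlap for miR-126a and miR-143.

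Ratios between members within a library set the endothelial beside the smooth muscle miRNAs; 3 were compared. The exact test of 3 against 3 libraries cannot go below p = 0.1, so no ratio could pass 0.05, and the values and their spread are given as a description. The ratio of miR-126a-3p to miR-143-3p was 0.714, 0.513 and 0.759 in the controls and 0.703, 0.792 and 0.618 with PS-NP. These values overlapped throughout, with a log2 difference of 0.10 (SE 0.20, exact 2-sided permutation p = 0.7, also 0.7 adjusted over the 3 ratios), and −0.071 without the second control.

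Against miR-145a-5p, miR-126a-3p stood at 1.45, 1.62 and 1.41 in the controls and 1.71, 2.43 and 2.72 with PS-NP. Exposed libraries all lay above the controls, by a log2 difference of 0.59 (SE 0.21, exact 2-sided permutation p = 0.1, adjusted p = 0.3 over the 3 ratios). As each library was left out, this difference ran from 0.45 to 0.78.

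The cluster partners miR-143-3p and miR-145a-5p, though cut from 1 transcript, did not keep a fixed ratio: it was 2.03, 3.16 and 1.85 in the controls and 2.44, 3.06 and 4.4 with PS-NP. The second control exceeded the first and second exposed libraries, so the groups overlapped. The log2 difference was 0.49 (SE 0.34, exact 2-sided permutation p = 0.3, adjusted p = 0.45), and 0.26 without the third PS-NP library.

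**Figure D4:**
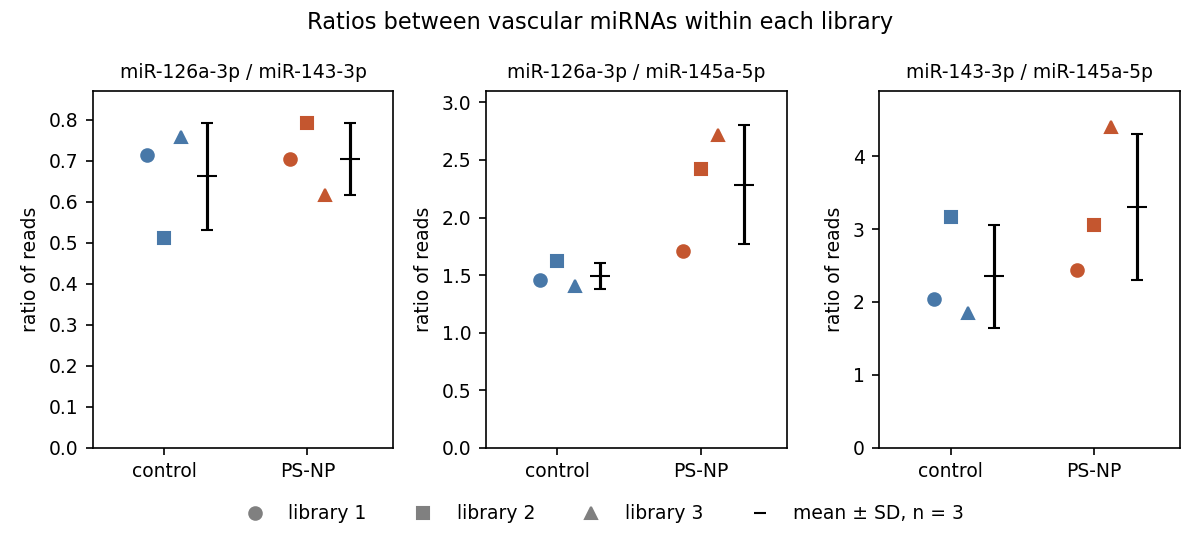
Ratios of reads between pairs of vascular miRNAs in each library (axes from 0), with the mean ± SD (n = 3) in black. The ratio of miR-126a-3p to miR-145a-5p is the one whose groups do not overlap, at most 1.62 in controls and at least 1.71 with PS-NP.

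Across the 6 libraries, and as a description only, the log2 level of miR-126a-3p followed that of miR-126a-5p most closely (Pearson's r 0.968) among the 222 other mouse miRNAs averaging 100 CPM or more. Next came miR-9-3p (0.9), miR-152-3p (0.893), miR-379-5p (0.893) and miR-411-3p (0.89), none of them on the vessel lists. For miR-143-3p the closest were miR-1843b-5p (0.985), miR-488-3p (0.938), miR-379-5p (0.919), miR-1839-5p (0.905) and miR-300-3p (0.873). Its own cluster partner miR-145a-5p ran the other way (−0.43), whereas the scarce miR-143-5p gave 0.938. For miR-145a-5p the closest were miR-541-5p (0.909), miR-365-3p (0.908), miR-874-3p (0.897), miR-30d-5p (0.865) and miR-383-5p (0.848), and its own 3p arm gave 0.1. All these pairs share libraries, depth and group, and 6 libraries give r little precision.

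Other endothelial miRNAs had differences on both sides of 0. Of 10 names, 8 were matched and 7 tested, of which 3 had a positive difference, 0 were called and the median log2 difference was −0.014, close to the values over all sequences. The most abundant, miR-139-5p, measured 15966, 17043 and 15208 CPM in the controls and 14981, 12945 and 13198 CPM with PS-NP. Each exposed library lay below each control, with a log2 difference of −0.23 (95% interval −0.57 to 0.11, edgeR adjusted p = 0.905). The scarce miR-322-5p measured 3.01, 2.34 and 6.13 CPM and then 4.5, 7.35 and 6.25 CPM, overlapping, with a log2 difference of 0.67 (95% interval −0.32 to 1.66, edgeR adjusted p = 0.905) that ran from 0.42 to 1.17 as each library was left out. miR-222-3p, which restrains endothelial growth by targeting Kit in human cells, measured 7702, 8788 and 7800 CPM and then 7198, 7160 and 6409 CPM, a log2 difference of −0.23 (edgeR adjusted p = 0.905). Its groups did not overlap either, and over all sequences 4.54% had exposed libraries all below the controls. Both miR-139-5p and miR-222-3p are also made by other cell types. Summed over the list, the controls held 32198 to 37101 CPM and the PS-NP libraries 28570 to 31275 CPM. This sum is carried by miR-139-5p, miR-222-3p and miR-221-3p, each more abundant than miR-126a-3p, so it is not a measure of endothelial cells. The groups overlapped for miR-221-3p, with means of 9481 CPM in the controls and 9393 CPM with PS-NP.

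Smooth muscle and mural miRNAs other than miR-143 and miR-145a included 6 tested of 10 names, of which 9 were matched. A positive difference was found for 5 of the 6, 0 were called, 2 had an unadjusted p under 0.05 (2.35% of all sequences, 1.41% with a higher mean) and the median log2 difference was 0.40. miR-199b-3p, a miRNA of mesenchymal and mural cells, measured 46.4, 71.5 and 53.7 CPM in the controls and 92.1, 76.7 and 92.1 CPM with PS-NP. From the opposite arm, miR-199a-5p measured 33, 35.2 and 44.8 CPM and then 54.6, 46.3 and 58.1 CPM. Both had exposed libraries all above the controls (5.01% of all sequences), and their log2 differences were 0.60 and 0.49 (edgeR adjusted p = 0.905 for each). They are the 2 with an unadjusted p under 0.05 and, as arms of 1 miRNA family, do not count as independent sequences. Sums over the list were 409 to 549 CPM in the controls and 522 to 610 CPM with PS-NP, which overlap.

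**Figure D5:**
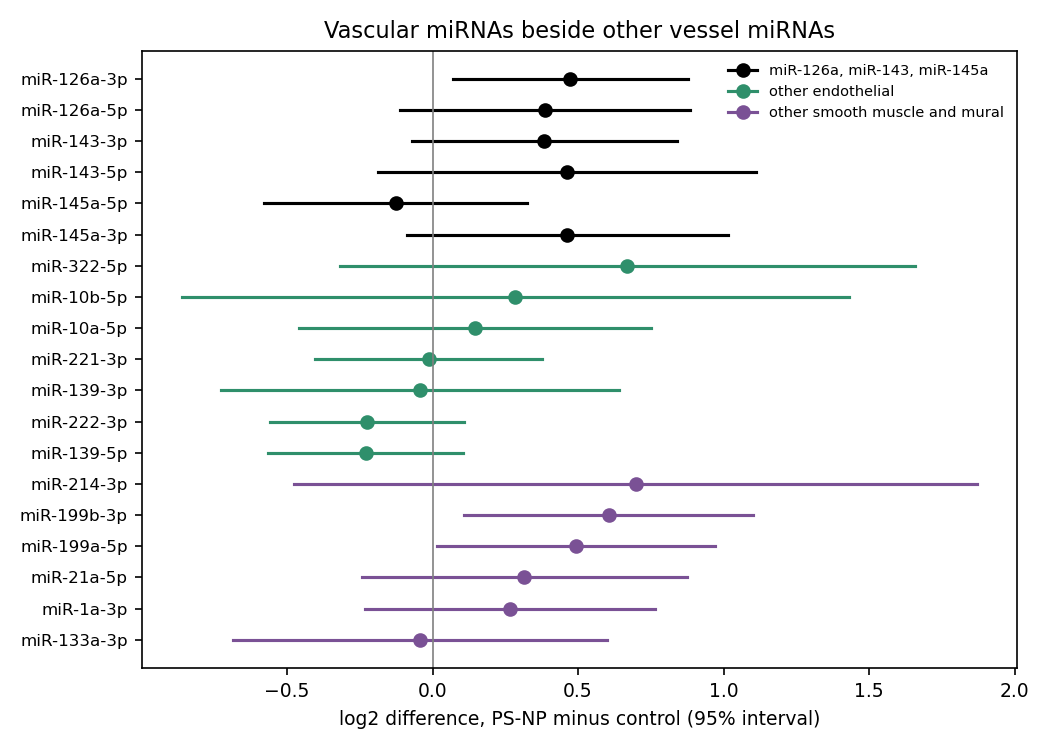
Log2 difference of PS-NP minus control (dots) with the 95% interval (lines) for the vascular miRNAs in black, other endothelial miRNAs in green and other smooth muscle and mural miRNAs in purple. Black and purple dots lie mostly above 0 (5 of 6 each), green dots on both sides (3 of 7 above 0).

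Markers of other cell types that a cortex sample can hold were read beside these values. Blood left in vessels would carry red cell miRNAs: miR-451a measured 37.1 to 91.9 CPM in the controls and 48.8 to 71.7 CPM with PS-NP, miR-486b-5p 731 to 1043 and 564 to 1004 CPM, and both arms of miR-144 were listed at 0 in all but 1 library each. Of 5 erythroid names 4 were matched and 2 tested, 1 with a positive difference, and summed levels were 778 to 1092 CPM in the controls and 622 to 1076 CPM with PS-NP. Leukocyte and microglial miRNAs (5 tested of 6 names, 4 with a positive difference) summed to 2010 to 2864 CPM and 1924 to 2513 CPM. Of these, miR-142a-5p measured 7.05 to 11.3 and 8.55 to 19.6 CPM and miR-155-5p 2.54 to 4.03 and 2.7 to 8.01 CPM. Their sum is carried by miR-150-5p, at 1616 to 2241 and 1232 to 1888 CPM, whose log2 difference (−0.26) was the negative one. For miR-146a-5p, at 368 to 604 and 500 to 660 CPM, it was 0.23. The list median of 0.43 is the value of miR-223-3p, at 6.94 to 11.1 and 8.15 to 16.7 CPM, and so rests on a scarce member.

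Choroid plexus and ependymal miRNAs (6 tested of 8 names, all 6 with a positive difference) summed to 2181 to 6002 CPM in the controls and 2516 to 8286 CPM with PS-NP, with the second library highest in both groups. This sum is carried by miR-204-5p, at 1760 to 5604 CPM in the controls and 2048 to 7199 CPM with PS-NP. Likewise miR-211-5p was highest in the second library of both groups, and miR-34c-5p in that of the exposed group only. The other members tested, miR-200a-3p, miR-200b-3p and miR-429-3p, were lowest among controls in the second and highest among exposed libraries in the first. Of this list, miR-34c-5p measured 254 to 474 and 147 to 867 CPM and miR-429-3p 1.61 to 7.1 and 1.54 to 17.7 CPM, while miR-449a-5p and miR-34b-5p were listed at 0 in all but 1 library each. Oligodendrocyte miRNAs (4 tested of 4 names, 2 with a positive difference) summed to 2044 to 2509 and 2010 to 2483 CPM, with miR-219a-5p at 0.925 to 4.83 and 0 to 2.23 CPM and miR-338-3p at 123 to 183 and 162 to 202 CPM. Of the 8 neuronal miRNAs, all tested, 6 had a positive difference, and miR-9-3p measured 503 to 804 and 785 to 937 CPM and miR-137-3p 85.7 to 164 and 96.8 to 205 CPM. In these 5 lists 0 members were called by edgeR and 0 had an unadjusted p under 0.05. The part of these cell types in the vascular values was not tested.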

How the data were processed

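Total RNA of prefrontal cortex was extracted with Trizol and made into TruSeq small RNA libraries, and the program ACGT101-miR removed adapters, junk and common RNA families, per the labels' protocols. Its version, the mapping, the genome build and the miRBase release are not given in these sources. Protocols mention 9 libraries, of which 6 were analysed here. The deposited raw values are estimated counts of reads per entry, where reads can be divided among several entries. Some entries that share reads hold the same sequence, but others, such as miR-145a-5p and miR-145b, hold different ones. Whole values made up 86.8% as listed and 95% after summing by sequence, so summing did not undo every division. The deposited norm values are a signal made by the authors from the raw values with 1 factor per library, and served only as an alternative. Another 3 lines of the table were left aside.

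Summing the 1115 entries by sequence gave 1013 sums, which were rounded. The design had foreseen counts; estimated counts were tested after rounding. A minimum of 10 reads in 3 or more libraries left 639 sequences, which edgeR 4.0.16 tested after TMM scaling, with factors of 0.863 to 1.12 (common biological coefficient of variation 30.6%). Arm ratios, log2((5p + 1)/(3p + 1)) of 152 hairpins, were tested with limma 3.58.1. Exact permutation tests used scipy 1.17.1. Scripts were tested on simulated data. The suffixes of entry names (L and R, bases gained or lost at the 5′ and 3′ ends) were checked against RefSeq: all 292 checkable entries fitted. Hairpin positions come from GENCODE M21 and RefSeq GRCm38.p6. Sequences of miR-143 and miR-145a are not reported here.

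The members, lists and tests were chosen with earlier results of these data known. The text names the 6 members, the members of lowest p in each list (2 each), and the 5 miRNAs most like each of the 3 guide arms, with miR-128-3p, miR-124-3p and miR-9-5p as a check of the tissue; likeness was ranked by Pearson's r of log2(CPM + 0.5). miR-222-3p, miR-221-3p, miR-138-5p, miR-133a-3p, miR-21a-5p and the miRNAs listed at 0 were added after their values were seen. So were miR-150-5p, miR-146a-5p and miR-223-3p of the leukocyte list, and miR-204-5p, miR-211-5p, miR-200a-3p and miR-200b-3p of the choroid plexus list. Alternatives covered DESeq2 1.42.0, other scalings and filters, GC content, a replicate block and leaving out each library. Counting error, taken at the lowest read count of each member over the libraries, was below the spread between libraries for each member.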

Additional observations from a re-analysis of the deposited data

How the results depend on the processing

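The count of sequences called was 0 under every alternative run for the group comparison, with 6 to 38 at an unadjusted p under 0.05. The adjusted p of the members ran from 0.731 to 0.999. Of the members, 5 kept a positive log2 difference throughout: over left-out libraries it ran from 0.38 to 0.61 for miR-126a-3p, 0.25 to 0.59 for miR-126a-5p, 0.18 to 0.49 for miR-143-3p, 0.27 to 0.64 for miR-143-5p and 0.29 to 0.59 for miR-145a-3p. For miR-145a-5p it ran from −0.26 to 0.063, turning without the third control. The test of miR-143-5p had no value at a mean of at least 100 reads. Removing the GC trend gave 0.39 for miR-126a-3p and 0.60 for miR-143-5p. The ratio of miR-126a-3p to miR-143-3p ran from −0.071 (without the second control) to 0.21 over left-out libraries, that of miR-126a-3p to miR-145a-5p from 0.45 to 0.78 and that of miR-143-3p to miR-145a-5p from 0.26 to 0.72. Arm ratios called ran from 0 to 1, the 1 being miR-1306 without the first control, and the cause was not tested. The labels number the libraries of both groups 1 to 3 but do not say that equal numbers pair libraries, so they were not taken as pairs. Deviations of same-numbered libraries correlated at 0.374, 0.15 and −0.168 across sequences. Those of differently numbered libraries ran from −0.454 to 0.417. With the replicate block 0 sequences were called (31 at an unadjusted p under 0.05, 3 of them members), and 0 arm ratios were called. There miR-126a-3p gave 0.48, or 0.40 with the GC trend removed as well. The block cannot move the log2 differences of the 3 member ratios (0.10, 0.59 and 0.49), since each number occurs once in each group. Counting error at each member's lowest read count was 12.8% for miR-143-5p, where the controls varied by 26.2% (SD over mean), and at most 7.33% for the other members.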
